A study of Mus musculus with 44 samples.

Results

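Solute carriers are the membrane proteins that move amino acids, ions, sugars, metals and metabolites across the plasma membrane and the membranes of organelles. The genes described here are those of the normalized expression matrix whose symbol is Slc followed by a family number, without Slc17a7, Slc1a2 and Slc1a3, which serve as markers of glutamatergic neurons and astrocytes. There were 120 of them among 8203 genes. They were ribosome-associated RNAs, pulled down from punches centred over the amygdala by translating ribosome affinity purification (TRAP) in 44 mice, each mouse being a sample. All mice were first-generation offspring of B6;FVB-Tg(Crh-cre)1Kres/J and Rosa26 fs-TRAP mice, heterozygous for each transgene and 10 to 16 weeks old. In these animals a Cre transgene under the Crh promoter leads to expression of the L10a ribosomal protein fused to GFP. The tagged ribosomes are thus those of cells in which that Cre was or had been active. After 2 days of habituation, tone-alone (TA) mice heard 5 tones, fear-conditioned (FC) mice heard 5 tones paired with shock, and extinction (EXT) mice were conditioned and then heard 30 tones without shock in a new context on the following day. Tissue was taken 2 hours after the last session as 1 mm punches, so the EXT mice were killed a day later in their protocol than the other groups. There were 16 TA mice (10 males and 6 females), 12 FC mice (6 and 6) and 16 EXT mice (10 and 6).

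In neurons, the mitochondrial carriers of the SLC25 family exchange ATP for ADP, import phosphate and carry aspartate, glutamate and malate for the shuttle that brings reducing power into mitochondria. Several of them bind calcium and respond to it. Other solute carriers end transmission by taking up GABA, and the chloride cotransporters Slc12a5 (KCC2) and Slc12a2 (NKCC1) set whether GABA inhibits a cell. Slc32a1, Slc17a6, Slc16a1, Slc30a3, Slc30a10 and Slc8a1 were not analysed here.

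The 120 genes were grouped by family number. There were 30 mitochondrial carriers, 9 neurotransmitter carriers, 12 amino acid and peptide carriers, 13 carriers of inorganic ions, 14 of metals and heme, 13 of sugars and other fuels, 17 of the nucleotide sugar family SLC35, 8 of organic ions, vitamins and lipids, and 4 proteins named after a carrier they bind or neighbour (Slc9a3r1, Slc9a3r2, Slc4a1ap and Slc7a6os).

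Library sizes ranged from 14649837 to 20440351 reads in TA mice, 13431032 to 19257786 after FC and 12802113 to 17805609 after EXT, the medians being 18015590, 16977973 and 15412341. The lowest read count of any transporter in any mouse was 70. Mice are numbered by sex and group, and the labels of 4 EXT mice of batch 3 break that order: 22 and 25 are labelled male among females, 53 female among males, and 44 EXT among FC numbers. Their labels were used as given. The labels give 5 batches, and batches 3 (5 mice) and 4 (1 mouse) hold EXT mice only, so there batch and condition cannot be told apart. Batch explained a median of 29.5% of the variance of a transporter (range 1.21% to 79.3%), against 4.39% for group and 2.38% for sex. Each share came from a separate fit without the other terms, so those of batch and group overlap. Batch also has the most levels, which raises its share even without an effect, so the shares are not directly comparable. Of 12 markers of GABA and central amygdala neurons 11 were listed, and their summed level in TA mice was 3290 to 7603 cpm. All 12 astrocyte markers, 8 of 10 oligodendrocyte markers and 4 of 10 choroid plexus markers were listed as well, but none of 7 microglial markers. In such bulk RNA, fewer cells of a type and less RNA per cell cannot be told apart.

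The most abundant transporter RNAs were those of mitochondrial energy supply. Levels per length (cpm per kilobase of merged exons) were compared in the TA mice. Slc25a4 (ANT1), which exchanges ATP for ADP across the inner mitochondrial membrane, had a median of 710 (632 to 954). Slc25a5 (ANT2), its paralog, had a median of 387 (213 to 571); it has processed pseudogenes, and how reads shared with them were counted is not stated. The 2-oxoglutarate and malate carrier Slc25a11 followed at 179 (151 to 294) and the phosphate carrier Slc25a3 at 165 (151 to 220). The ranges of Slc25a4 and Slc25a5 did not overlap, while those of Slc25a11 and Slc25a3 did. Slc25a39, which brings glutathione into mitochondria, had 134, and Slc22a17, a receptor for lipocalin-2, had 133 (66 to 222). The heme transporter Slc48a1 had 78.2 and the mitochondrial glutamate carrier Slc25a22 had 62.7. The chloride extruder Slc12a5 had 11.4, the neuronal glucose transporter Slc2a3 (GLUT3) had 11, and Slc2a1 (GLUT1), the glucose transporter of vessels and glia, had 5.49. The median over all 120 genes was 7.69 and the lowest was 1.11, for the amino acid carrier Slc43a2. The 3 genes at the top held 41.1% of the summed level and the 30 mitochondrial carriers held 68.0%.

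**Figure D1:**
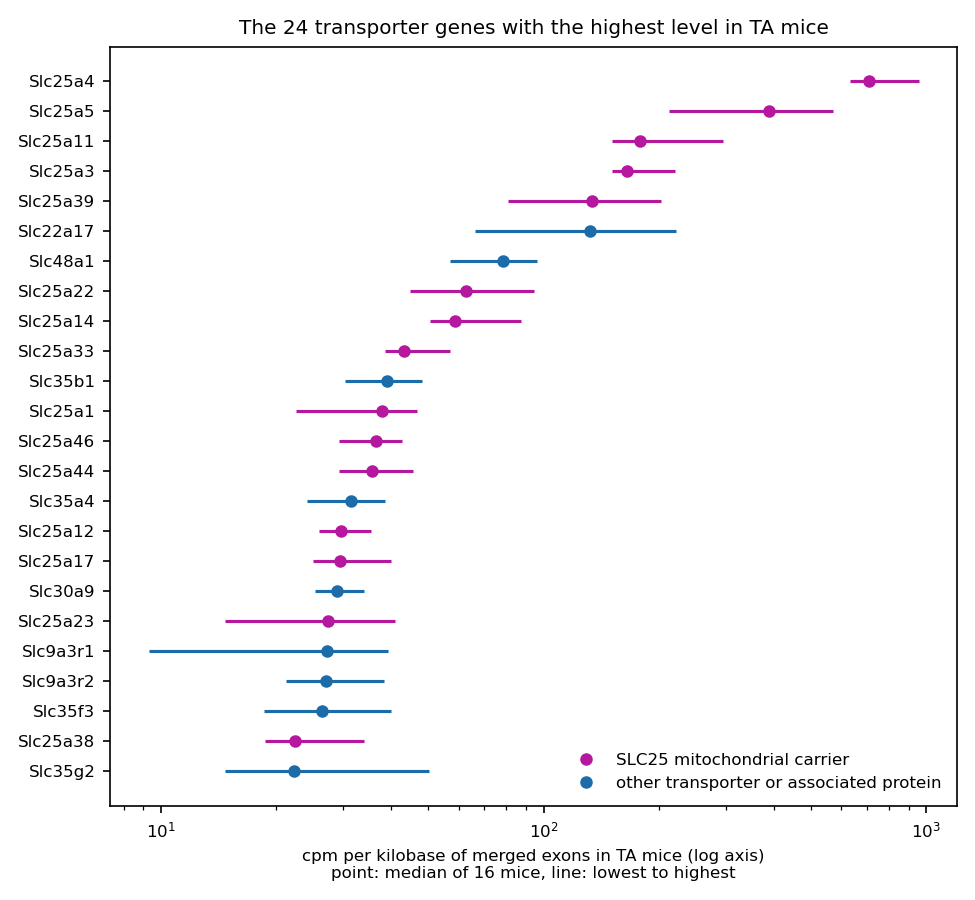
Levels of the 24 transporter genes highest in the 16 TA mice, in cpm per kilobase of merged exons on a log axis; points are medians, lines run from the lowest to the highest mouse, and colour marks SLC25 carriers. Slc25a4 (median 710) and Slc25a5 (387) stand above the rest, and Slc22a17 (133) and Slc48a1 (78.2) are the highest outside the SLC25 family.

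EXT vs. TA compares the RNA on ribosomes of mice that went through extinction with that of mice that heard tones alone. Most transporters differed little, and 6 of the 9 that passed the test are mitochondrial carriers. With the batch number and sex as covariates in limma, and Benjamini-Hochberg adjustment over all 8203 genes, 9 of the 120 transporters were FDR-significant (7.5%), against 21.4% of all genes. Of these, 7 rose (10.4% of all genes did) and 2 fell (11% of all genes did). The calcium-activated ATP-Mg and phosphate carrier Slc25a23, the carriers Slc25a15, Slc25a51 and Slc25a53, the heme transporter Slc48a1 and the sodium bicarbonate cotransporter Slc4a4 rose, while the mitochondrial glutamate carrier Slc25a22 and the sodium-driven bicarbonate transporter Slc4a10 fell. These are 8 of the 9, and the other one is counted here but not described. The 6 mitochondrial carriers are 20% of their class, which is near the share of all genes, and 3.33% of the 90 other members were FDR-significant.

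These calls rested on how batch was coded. When the batches were categories, so that EXT and TA mice were compared inside batches 1, 2 and 5, no transporter was FDR-significant in limma (0.0244% of all genes were) and the smallest adjusted p of a transporter was 0.143. All 9 had the same direction in that fit, and for Slc25a23, Slc25a22 and Slc25a15 the unadjusted p stayed under 0.05. The mice of these batches also helped to pick the 9, so shared directions here and below are not independent evidence. Taking batches 1, 2 and 5 singly, 6 of the 9 had the same direction in all 3 batches and 3 had it in 2; without EXT mouse 21, Slc25a23 and Slc4a4 lost it in batch 2 (-0.11 and -0.63). No transporter, and 0.0% of all genes, had EXT and TA mice that did not overlap. The EXT libraries were also smaller. With log2 library size as a covariate 0 of 120 transporters and 0 of 8203 genes were FDR-significant in limma. Without adjustment, 3 transporters and 449 of all genes had p under 0.05 there. Without mice 22, 25, 44 and 53, left out after seeing the data, 0 transporters were FDR-significant in limma (0.0% of all genes) and 5 had p under 0.05 without adjustment (16.5% of all genes), while all 9 had the same direction. Smaller libraries and batch 3 each went with EXT. Within EXT, the libraries of batch 3 ran from 12802113 (mouse 44) to 17805609 (mouse 23) reads, the lowest and highest of the group. The parts of library size, batch 3 and group in the result were not tested.

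Slc25a23 had the largest positive fold change of the 120. This carrier exchanges ATP-Mg for phosphate across the inner mitochondrial membrane and is activated by cytosolic calcium, and its gene lies at chr17:57043711-57059863 on the minus strand (GRCm38). Its log2 cpm ran from 6.28 to 7.76 in TA mice (median 7.18), from 6.76 to 7.33 after FC (median 7.21) and from 6.94 to 9.30 after EXT (median 7.70). Of the 16 EXT mice, 12 lay above the TA median. The EXT values fell apart, with mice 22, 25, 44 and 53 of batch 3 at 9.17, 9.30, 8.80 and 9.20, mouse 55 of batch 4 at 8.87 and mouse 21 of batch 2 at 9.15, and the other 10 between 6.94 and 7.78. The rise was 0.91 ± 0.23 (SE) on the log2 scale (limma, adjusted p = 0.0131, 95% interval 0.45 to 1.37). It was FDR-significant in each of 32 fits that left out 1 mouse, with fold changes of 0.81 to 0.98. With the batches as categories it was 0.40 ± 0.18 (limma, unadjusted p = 0.0374, adjusted p = 0.214), and without mouse 21 that value was 0.21 with an unadjusted p of 0.148. Without mice 22, 25, 44 and 53 the number-coded fit gave 0.53 ± 0.19 (limma, adjusted p = 0.214). EXT exceeded TA by 0.49 in batch 1, by 0.59 in batch 2 and by 0.25 in batch 5, and in batch 2 without mouse 21 the difference was -0.11.

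Slc25a22 carries glutamate with a proton into the matrix and lies at chr7:141429744-141437892. Its log2 cpm was 8.06 to 9.14 in TA mice (median 8.55), 7.56 to 9.14 in FC mice (median 8.56) and 7.75 to 8.95 in EXT mice (median 8.15). Although the groups overlapped, 14 of 16 EXT mice were under the median of TA. It fell by 0.35 ± 0.11 (SE; limma, adjusted p = 0.0239) and stayed FDR-significant without any of the 32 mice. Coding the batches as categories gave a log2 fold change of -0.27 ± 0.12 (limma, unadjusted p = 0.0258, adjusted p = 0.183), and the differences were -0.10, -0.53 and -0.18 in batches 1, 2 and 5. The aspartate and glutamate carrier Slc25a12 (aralar), which calcium activates, differed in the same direction without passing the threshold. Its TA values were 7.57 to 8.02 (median 7.77) and its EXT values were 7.26 to 7.97 (median 7.61), with 14 of 16 EXT mice under the TA median. The log2 fold change was -0.16 ± 0.07 (limma, adjusted p = 0.0842), and with the batches as categories it was -0.23 with an unadjusted p of 0.00281, which gave the smallest adjusted p of the set in that fit, 0.143. Within batches 1, 2 and 5 it was -0.21, -0.29 and -0.20.

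A further 3 mitochondrial carriers that rose are known for unlike roles. Slc25a15 exchanges ornithine for citrulline in the urea cycle, and its log2 cpm was 3.91 to 4.52 in TA mice (median 4.17) and 3.87 to 5.44 in EXT mice (median 4.52). It rose by 0.39 ± 0.13 (limma, adjusted p = 0.0311), with 13 of 16 EXT mice above the TA median and differences of 0.41, 0.66 and -0.01 in batches 1, 2 and 5. The NAD+ carrier Slc25a51 had 6.34 to 6.74 in TA mice (median 6.49) and 6.31 to 7.69 in EXT mice (median 6.63), where batches 3 and 4 held the highest values. It rose by 0.38 ± 0.13 (limma, adjusted p = 0.0324), but with the batches as categories the value was 0.12 (unadjusted p = 0.287). Slc25a53, whose substrate is not established, had 3.68 to 5.41 in TA mice (median 4.93) and 4.18 to 6.13 in EXT mice (median 5.28). It rose by 0.38 ± 0.13 (limma, adjusted p = 0.0391), and batch explained 79.3% of its variance, the largest share of the 120 genes. Leaving out 1 mouse at a time, it was FDR-significant in 18 of 32 fits, against 26 for Slc25a51 and 28 for Slc25a15.

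**Figure D2:**
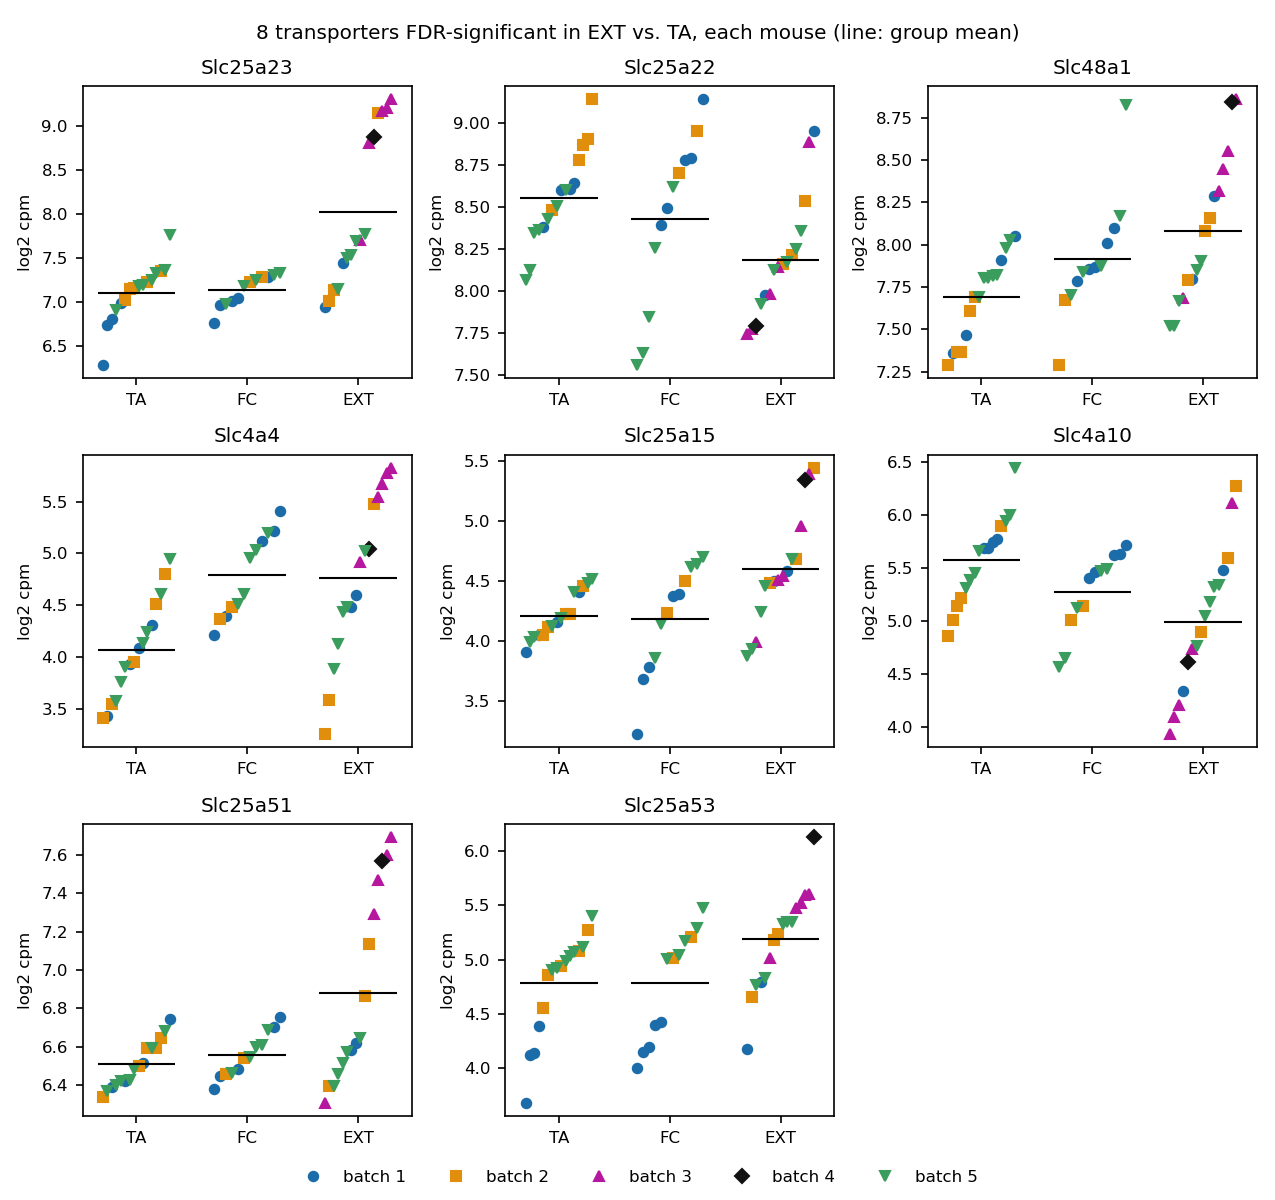
Log2 cpm of 8 transporters FDR-significant in EXT vs. TA in each of the 16 TA, 12 FC and 16 EXT mice; every point is a mouse, symbol and colour give its batch, and lines are group means. For Slc25a23 the EXT mice at 8.80 or above are those of batches 3 and 4 except mouse 23, plus mouse 21 of batch 2, and the EXT and TA ranges overlap in all 8 panels.

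Among carriers of the plasma membrane and endosomes, 3 were FDR-significant. Slc48a1 moves heme from endosomes and lysosomes into the cytosol, and its log2 cpm was 7.29 to 8.05 in TA mice (median 7.75) and 7.52 to 8.86 in EXT mice (median 7.99). It rose by 0.39 ± 0.13 (limma, adjusted p = 0.0291), with 12 of 16 EXT mice above the TA median, and was FDR-significant in 28 of 32 fits without a mouse, against 27 for Slc4a4 and 26 for Slc4a10. Within batches 1, 2 and 5 the differences were 0.35, 0.55 and -0.16, so the direction was not shared. Slc4a4 (NBCe1) brings bicarbonate into cells with sodium and is abundant in astrocytes. Its values were 3.40 to 4.95 in TA mice (median 4.02), 4.21 to 5.41 in FC mice (median 4.78) and 3.25 to 5.82 in EXT mice (median 4.76), so that FC and EXT medians were alike while EXT mice spread more widely. It rose in EXT by 0.68 ± 0.22 (limma, adjusted p = 0.0307). With the batches as categories the value was 0.24 (unadjusted p = 0.244), and within batches 1, 2 and 5 it was 0.60, 0.06 and 0.22. Slc4a10 (NCBE), driven by sodium, takes up bicarbonate in GABAergic neurons and in the choroid plexus. It was listed at 4.86 to 6.44 in TA mice (median 5.67) and 3.93 to 6.28 in EXT mice (median 4.97), and values below the TA median were found in 14 of 16 EXT mice. It fell by 0.59 ± 0.19 (limma, adjusted p = 0.0312), with differences of -0.81, 0.36 and -0.61 in batches 1, 2 and 5.

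**Figure D3:**
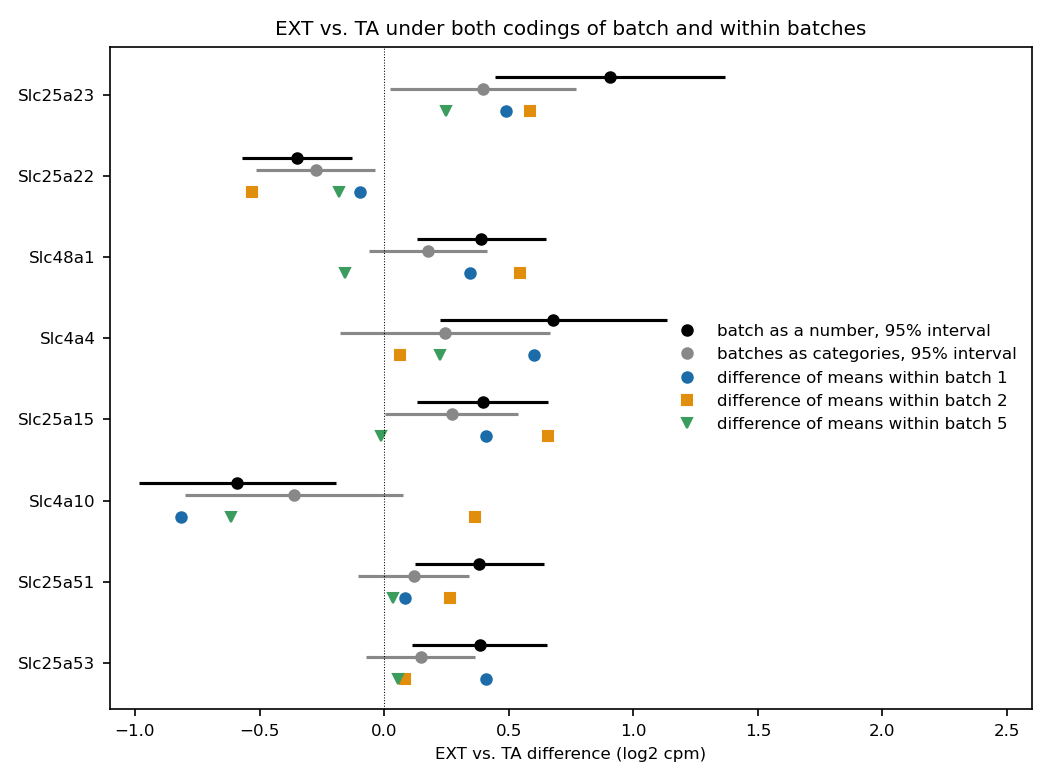
EXT vs. TA differences (log2 cpm) of 8 FDR-significant transporters; black points and lines are the limma estimate and 95% interval with batch as a number, grey ones those with batches as categories, and coloured symbols are differences of group means within batches 1, 2 and 5. Slc25a23, Slc25a22 and Slc25a15 have grey intervals that leave out 0, and Slc4a10 has a positive difference in batch 2 (0.36) and negative ones in batches 1 and 5.

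Cell type markers moved beside these genes. Of the 12 astrocyte markers, 11 had a positive EXT vs. TA fold change, with a median of 0.40 and 2 FDR-significant in limma. Their summed level was 753 to 3008 cpm in TA mice (median 1423), 1069 to 2574 in FC mice (median 2171) and 1097 to 3801 in EXT mice (median 2166), and in the EXT mice of batch 3 it was 2426 to 3801. With the batches as categories the median of the 12 was 0.01. Of 11 listed markers of GABA and central amygdala neurons 9 were lower in EXT, with a median of -0.61 over the 11. In limma 6 were FDR-significant, among them Meis2, which was higher (0.41). The median of the 11 was -0.20 with the batches as categories. All 4 listed choroid plexus markers were lower in EXT, with a median of -1.13 (-0.45 with the batches as categories) and none FDR-significant. Their summed level was 187 to 27465 cpm in TA mice (median 6543) and 186 to 51048 in EXT mice (median 2609). When an astrocyte score was added as a covariate, 0 of 120 transporters and 0 of 8203 genes were FDR-significant in limma. Without adjustment, 20 transporters and 2200 of all genes then had p under 0.05. In that fit Slc4a4 had a fold change of 0.35 and Slc25a23 of 0.67. With a choroid plexus score as a covariate, 4 of the 9 remained FDR-significant (Slc25a23, Slc25a22, Slc25a15 and Slc48a1), and Slc4a10 had -0.42 (limma, adjusted p = 0.0925). The part of these cell types in the transporter values was not tested further.

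Without adjustment, 33 transporters (27.5%) had p under 0.05 for EXT and TA mice, 18 higher and 15 lower, against 37.8% of all genes (19.1% higher and 18.7% lower). The median log2 fold change of the 120 was -0.01, and that of all genes was 0.01. There were 56 positive and 64 negative values, and 83 of the 120 were under 0.25 in size. Batches as categories left 11 transporters at that threshold, 8 higher and 3 lower, against 21.1% of all genes (10.2% higher and 11% lower). Those described here are Slc25a23, Slc25a15, Slc25a28, Slc25a33, Slc50a1, Slc35b1 and Slc35b2 on the higher side and Slc25a22, Slc25a25 and Slc25a12 on the lower side; Slc25a28, Slc25a33, Slc35b1 and Slc35b2 were chosen after their values were seen. Of the 33, 16 had the same direction in batches 1, 2 and 5, 16 in 2 of them and 1 in a single batch. The same mice helped to pick the 33, so this is not independent evidence.

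By class, the mitochondrial carriers were the most divided. Of the 30, 14 (46.7%) reached p under 0.05 without adjustment, 7 higher and 7 lower, against 37.8% of all genes and 21.1% of the 90 others, and the class median was 0.00. With the batches as categories 7 of the 30 did (23.3%), against 21.1% of all genes. Besides those already described, Slc25a16 had a fold change of 0.38 (limma, adjusted p = 0.0502) and the basic amino acid carrier Slc25a29 had -0.25 (adjusted p = 0.082). Slc25a11, which exchanges 2-oxoglutarate for malate in the same shuttle as Slc25a12, had -0.25 (adjusted p = 0.0634) and -0.07 with the batches as categories. Among the most abundant carriers, Slc25a3 had -0.20 (adjusted p = 0.112), Slc25a4 -0.11 (adjusted p = 0.266) and Slc25a5 -0.23 (adjusted p = 0.277), and none passed the threshold.

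Slc25a25 is, like Slc25a23, a calcium-activated carrier of ATP-Mg and phosphate, and its values lay on the opposite side. Its log2 cpm was 6.29 to 7.28 in TA mice (median 6.77), 5.33 to 7.09 in FC mice (median 6.70) and 6.12 to 6.94 in EXT mice (median 6.57). In EXT, 13 of 16 mice lay below the TA median. The fold change was -0.24 ± 0.09 (limma, adjusted p = 0.0547), -0.27 with the batches as categories (unadjusted p = 0.00737), and -0.35, -0.54 and -0.06 within batches 1, 2 and 5. The study asked about targets of the transcription factor CREB1, so the cAMP response element TGACGTCA, which reads the same on both strands and contains the shorter site TGACG, was searched in RefSeq promoter windows of 300 bases (250 before a start and 50 after it). RefSeq windows on GRCm38.p6 were matched to 96 of the 120 genes, 127 windows in all. The element was in 2 of these (1.57%), 1 of 3 of Slc25a25 and 1 of Slc25a36, against 1.79% of all 32851 windows. TGACG on either strand was in 26.8% of the windows of transporters and in 20.8% of all. Of the 3 listed starts of Slc25a25, only the second matched an annotated transcript. The third, whose window holds the element, matched none. The first start of Slc25a23 did match one. The 250 bases before the third listed start of Slc25a25 (chr2:32424067-32424316, minus strand, inside the gene and outside its annotated exons) and before the first start of Slc25a23 (chr17:57059864-57060113, minus strand) are shown 5′ to 3′, since the calcium-activated pair differed in sign; the windows of the first and second Slc25a25 starts hold neither the element nor TGACG; capitals mark the element, which ends 142 bases before the Slc25a25 start and is not in the Slc25a23 window.
Slc25a25: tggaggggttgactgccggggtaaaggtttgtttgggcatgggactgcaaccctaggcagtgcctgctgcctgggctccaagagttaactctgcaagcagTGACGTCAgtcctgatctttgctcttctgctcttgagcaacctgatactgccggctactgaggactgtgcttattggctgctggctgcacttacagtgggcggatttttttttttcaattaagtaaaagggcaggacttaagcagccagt
Slc25a23: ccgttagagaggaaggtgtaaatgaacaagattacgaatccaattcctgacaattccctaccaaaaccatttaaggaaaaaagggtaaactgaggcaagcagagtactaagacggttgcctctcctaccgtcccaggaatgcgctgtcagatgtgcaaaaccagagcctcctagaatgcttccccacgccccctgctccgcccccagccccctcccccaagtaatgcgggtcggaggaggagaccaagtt
A match of letters is a description of the window and says nothing of binding.

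The neurotransmitter class had the highest class median, 0.16 over 9 genes, and 3 of its members had an unadjusted p under 0.05, all higher (33.3%, against 37.8% of all genes). With the batches as categories the median was 0.08 and 0 of the 9 had such a p. The creatine transporter Slc6a8 had a fold change of 0.43 (limma, adjusted p = 0.0589), the neutral amino acid carrier Slc6a15 had 0.26 (adjusted p = 0.0991) and Slc6a11 (GAT3), the GABA transporter of astrocytes, had 0.46 (adjusted p = 0.104); Slc6a8 and Slc6a15 were chosen after their values were seen. Slc6a11 had 0.09 when the batches were categories.

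Carriers of inorganic ions had a class median of -0.03. In the chloride pair, Slc12a5 had -0.16 ± 0.17 (adjusted p = 0.479) and Slc12a2 had 0.09 ± 0.26 (adjusted p = 0.828). Slc24a2, a potassium-dependent sodium and calcium exchanger, had 0.21 ± 0.21.

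None of 12 amino acid or peptide carriers reached p under 0.05 before adjustment, and the class median was -0.04. The glutamine carriers Slc38a1 and Slc38a2 had -0.09 and 0.11, the subunits Slc3a2 and Slc7a5 of the large neutral amino acid transporter had -0.07 and -0.01, and the alanine and serine exchanger Slc7a10 had -0.05; Lrp3 on the opposite strand overlaps 17.9% of the Slc7a10 exons, and whether counting used strand is not stated. Among metal and heme carriers (class median -0.01), the zinc importer Slc39a6 had -0.46 ± 0.18 (limma, adjusted p = 0.0611) and the zinc exporter Slc30a4 had 0.35 ± 0.16 (adjusted p = 0.104). Among carriers of sugars and fuels (class median -0.01), the sugar carrier Slc50a1 had 0.28 ± 0.10 (adjusted p = 0.052) and the myo-inositol carrier Slc2a13 had -0.48 ± 0.19 (adjusted p = 0.0696). The glucose carriers Slc2a3 and Slc2a1 had -0.29 ± 0.14 and 0.04 ± 0.22. The SLC35 family had a class median of 0.01 and Slc35a4 a fold change of 0.23 (adjusted p = 0.0573). In the class of organic ions, vitamins and lipids (median -0.09), Slc22a17 had -0.36 ± 0.16 (adjusted p = 0.104). The associated proteins had a median of -0.14, with -0.33 for the scaffold Slc9a3r2 (adjusted p = 0.0783) and -0.22 for Slc4a1ap (adjusted p = 0.0587).

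**Figure D4:**
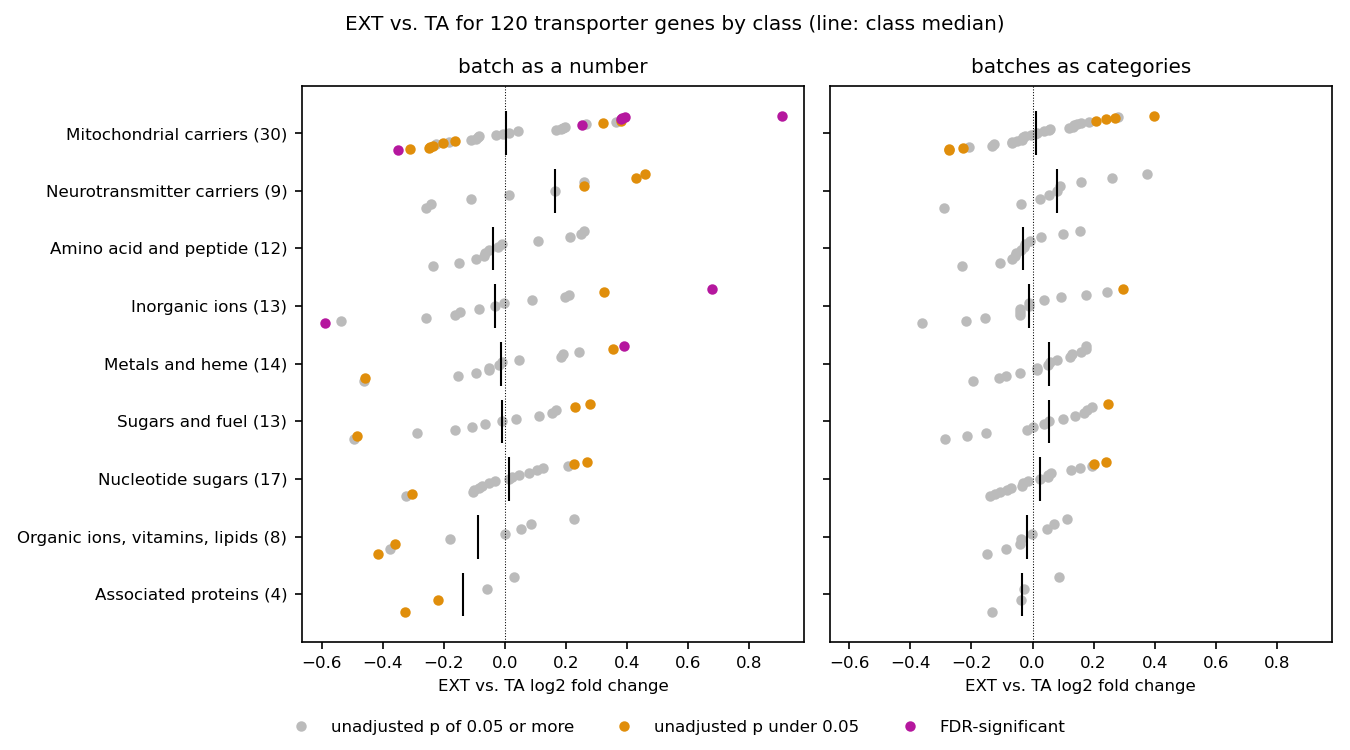
EXT vs. TA log2 fold changes of the 120 transporters by class, with batch as a number (left) and batches as categories (right); each point is a gene, vertical lines are class medians, and colours mark the FDR-significant genes and those with an unadjusted p under 0.05. On the left 9 genes are FDR-significant, 6 of them mitochondrial; on the right none is and 11 have an unadjusted p under 0.05, 7 of them mitochondrial.

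FC vs. TA compares conditioned mice with mice that heard the same number of tones, both killed on the training day. No transporter was FDR-significant in limma with either coding of batch (0.0% of all genes) or under the other alternatives run. Before adjustment 8 transporters had p under 0.05, 3 higher and 5 lower, against 10.4% of all genes (4.22% higher and 6.18% lower). Batches as categories gave 14 (3 higher and 11 lower), against 16.8% (8.61% and 8.2%). The median fold change of the 120 was -0.03, with 50 positive and 70 negative values. The split of the transporters differed between fits. The choroid plexus score gave 8 higher and 0 lower (78 positive and 42 negative values), against 402 and 545 of the 8203 genes. Library size gave 4 and 0, against 290 and 399 of all genes. The astrocyte score gave 3 and 0, against 190 and 381, and the joint fit of 3 groups 2 and 0, against 164 and 243.

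Slc4a4 had the smallest p of the 120. Every one of the 12 FC mice lay above the TA median of 4.02, and the lowest FC value was 4.21, while the ranges still overlapped. Its log2 fold change was 0.73 ± 0.17 (limma, unadjusted p = 0.000146, adjusted p = 0.299). It was 0.71 with the batches as categories (unadjusted p = 0.000269, adjusted p = 0.0904) and 0.93, 0.38 and 0.70 within batches 1, 2 and 5. Leaving out 1 mouse at a time gave 0.66 to 0.78, with an unadjusted p under 0.05 in each of 28 fits. In males the value was 0.76 ± 0.24 and in females 0.70 ± 0.23. All 12 astrocyte markers were higher in FC as well, with a median fold change of 0.46 and 7 at an unadjusted p under 0.05, and with an astrocyte score as a covariate the value for Slc4a4 was 0.43 (limma, adjusted p = 0.687).

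Others of the 8 were Slc48a1 on the higher side (0.22) and Slc4a10, Slc22a17, Slc5a3, Slc35f1 and Slc25a25 on the lower side (-0.33, -0.34, -0.34, -0.25 and -0.23); Slc35f1 was chosen after its values were seen. Slc5a3, which takes up myo-inositol with sodium, had -0.21, -0.54 and -0.38 within batches 1, 2 and 5. Slc22a17 had -0.43, -0.27 and -0.41 there, and Slc4a10 had -0.16, -0.15 and -0.68. The FC and EXT comparisons used the same TA mice. Side by side, Slc4a4 had 0.73 in FC and 0.68 in EXT, Slc25a25 -0.23 and -0.24, Slc22a17 -0.34 and -0.36, and Slc4a10 -0.33 and -0.59. Slc25a23 had 0.06 ± 0.09 in FC, beside 0.91 in EXT.

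EXT vs. FC, which shares its EXT and FC mice with the comparisons above, gave no FDR-significant transporter in limma (0.0% of all genes), with either coding of batch, and the smallest adjusted p was 0.219 with batch as a number and 0.975 with categories. Before adjustment 12 had p under 0.05, 10 higher and 2 lower in EXT, against 19.3% of all genes (11% higher and 8.35% lower), and with the batches as categories there were 2, against 4.19%. Mitochondrial carriers were 7 of the 10 higher genes. Slc25a23 differed by 0.87 ± 0.25 (limma, unadjusted p = 0.00172) and Slc25a16 by 0.45 (0.13 with the batches as categories). Slc30a4 had 0.46 (unadjusted p = 0.0137); its log2 cpm was 3.65 to 5.17 in FC mice (median 4.46) and 4.23 to 5.73 in EXT mice (median 4.73). On the lower side, Slc9a3r2 had -0.45 (unadjusted p = 0.00909) and the uncoupling protein Slc25a27 (UCP4) had -0.24 (unadjusted p = 0.0431); the nearest gene outside was Slc35g2, at -0.47 (unadjusted p = 0.0504).

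The sexes were then fitted apart, and no transporter was FDR-significant in limma in any of the 6 comparisons within a sex (0.0853% of all genes for EXT vs. TA in males and 0.0% in the others). Before adjustment 19 transporters had p under 0.05 for EXT vs. TA in males (12 higher and 7 lower), against 29.0% of all genes (13.4% and 15.6%). In females there were 20 (10 and 10), against 14.9% (8.9% and 5.99%). Batches as categories gave 7 in males and 20 in females, against 12.5% and 13.8%. The difference between the sexes was tested by an interaction term, for which no transporter and 0.0% of all genes were FDR-significant. At p under 0.05 before adjustment there were 11 transporters, against 4.13% of all genes, and 14 with batches as categories, against 6.02%. Without mice 22, 25, 44 and 53 there were 9, against 352 of 8203 genes (limma, smallest adjusted p of a transporter 0.93). Females without those mice gave 15 for EXT vs. TA, against 598 of 8203 genes. With all mice and batch as a number, Slc15a4, a lysosomal carrier of histidine and small peptides, had the smallest interaction p. In females its log2 cpm was 4.43 to 4.75 in TA mice (median 4.62) and 3.30 to 4.64 in EXT mice (median 3.78). In males it was 3.77 to 4.76 (median 4.39) and 4.24 to 4.83 (median 4.46). The EXT vs. TA value was 0.86 ± 0.21 larger in males than in females (limma, unadjusted p = 0.000282, adjusted p = 0.77), and 0.79 with the batches as categories. The scaffold protein Slc9a3r1 (NHERF1) differed the other way, by -1.06 ± 0.38 (unadjusted p = 0.00851).

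FC vs. TA pointed to different sides in males and females. In males 18 transporters reached p under 0.05 before adjustment, 3 higher and 15 lower, against 7.23% of all genes (2.45% higher and 4.78% lower), and 87 of 120 values were negative with a median of -0.10. In females 10 had one, all higher, against 8.98% of all genes (4.29% higher and 4.69% lower), and 77 of 120 values were positive with a median of 0.07. Batches as categories gave 22 in males (3 higher and 19 lower), against 13.1% (5.77% and 7.34%), and 16 in females (10 and 6), against 14.8% (8.16% and 6.6%). An interaction term of sex and FC vs. TA, added after these counts were seen, gave no FDR-significant transporter in limma; 19 reached p under 0.05 before adjustment, with batch in either coding, 1 larger in males and 18 smaller, against 6.58% of all genes (2.21% and 4.38%), or 9.62% with batches as categories. The smallest adjusted p was 0.565, for Slc7a10, which had -0.88 ± 0.37 in males and 0.87 ± 0.31 in females.

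Those lowest in FC males include carriers that the choroid plexus epithelium is known to express in abundance, chosen after their values were seen. The monoamine carrier Slc29a4 (PMAT) had 4.79 to 7.42 in TA males (median 6.10) and 3.30 to 5.10 in FC males (median 4.60), and 4.26 to 6.83 (median 5.42) and 3.68 to 7.30 (median 5.81) in females. Its fold change was -1.46 ± 0.41 in males (limma, unadjusted p = 0.00206) and 0.42 ± 0.49 in females. The anion exchanger Slc4a2 (AE2) had -1.42 ± 0.40 and 0.41 ± 0.44, and the copper importer Slc31a1 (CTR1) had -1.09 ± 0.35 and 0.35 ± 0.37. For these 3 genes the male and female ranges of TA mice overlapped, and no FC male reached the male TA median. All 4 listed choroid plexus markers were lower in FC, with a median of -0.88 over both sexes. Their summed level was 1480 to 27465 cpm in TA males (median 10858) and 1143 to 4492 in FC males (median 1624), against 187 to 19358 in TA females (median 2516) and 673 to 19373 in FC females (median 5420). Over both sexes, a choroid plexus score as a covariate moved the FC vs. TA median of the 120 from -0.03 to 0.05. Choroid plexus lies outside the amygdala, and its part in the values of each sex was not tested. Slc25a39, also chosen after its values were seen, had FC vs. TA values of -0.43 ± 0.13 in males and 0.34 ± 0.20 in females. Its interaction of -0.75 was not FDR-significant (limma, unadjusted p = 0.00498, adjusted p = 0.587).

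**Figure D5:**
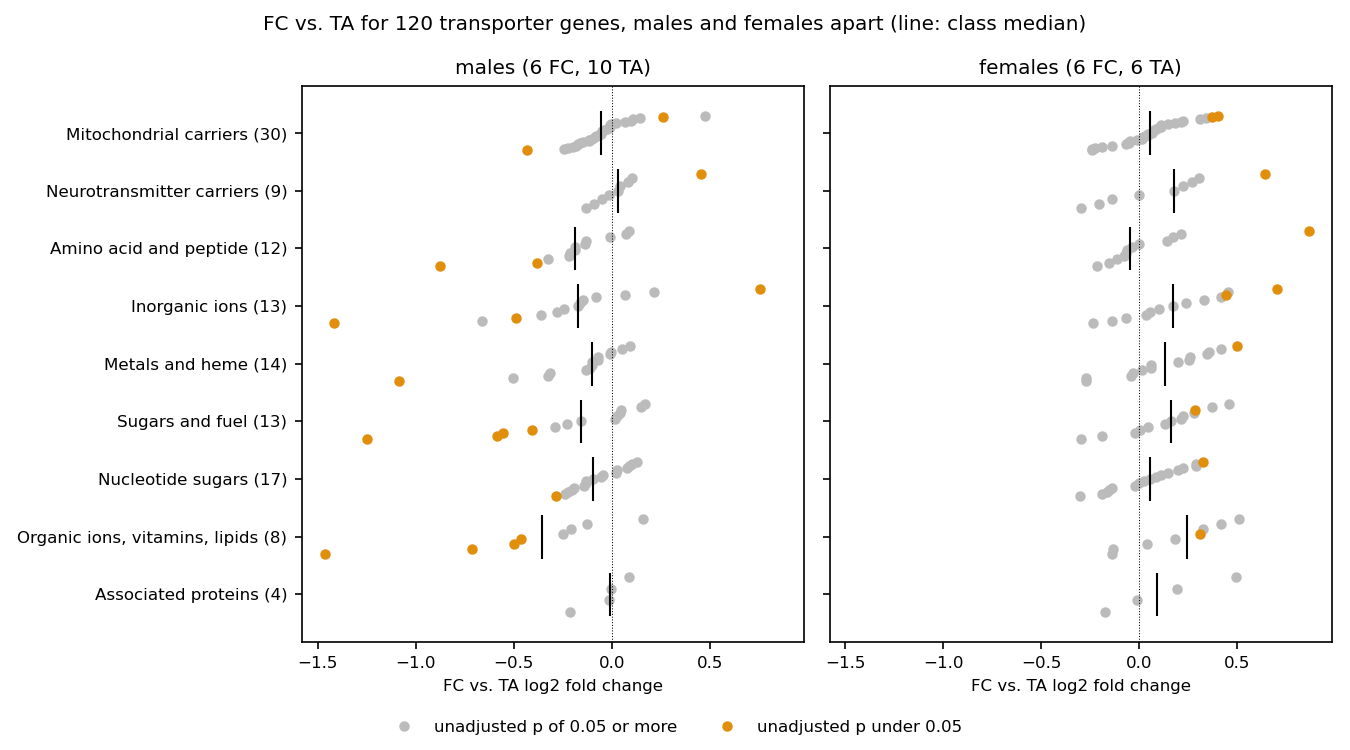
FC vs. TA log2 fold changes of the 120 transporters by class in males (6 FC, 10 TA) and females (6 FC, 6 TA), with batch as a number; each point is a gene, vertical lines are class medians, and orange marks an unadjusted p under 0.05. In males 87 genes lie below 0 and Slc29a4, Slc4a2 and Slc31a1 lie below -1.0, while in females 77 genes lie above 0.

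For EXT vs. FC within a sex, 15 transporters (13 higher and 2 lower) reached p under 0.05 before adjustment in males, against 13.0% of all genes (6.16% and 6.85%). In females there were 14 (3 and 11), against 6.47% (3.49% and 2.99%). Batches as categories gave 24 in males and 0 in females, against 8.79% and 1.43%. These comparisons share the FC males and FC females with those above.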

How the data were processed

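Ribosome-associated RNA of 44 mice was measured by TRAP-seq. The authors used Trimmomatic 0.36 for trimming, STAR for mapping to GRCm38 and SAMtools for sorting, processed counts with edgeR, retained genes with over 4 cpm in every sample, dropped outlying samples, and deposited voom log2 cpm values (offset 0.5). The columns headed by an animal number, recorded as other, hold the same deposited log2 values. Group, sex and batch came from the labels; the sex labels were not checked from expression, and those of mice 22, 25 and 53 and the group label of mouse 44 break the animal-number order. Whole reads were solved back for 360932 of 360932 values (tolerance 0.05 reads).

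The deposited log2 values of all 8203 genes were fitted with lmFit and eBayes of limma 3.58.1 (R 4.3.3) for each pair of groups, with batch number and sex as covariates. Tests were two-sided, and p-values were adjusted by Benjamini-Hochberg with 0.05 as the FDR limit. The study states control for batch and sex but not the coding of batch. The fits were tested on simulated data. Exon lengths came from GENCODE mouse release M21 on GRCm38. Tables were made in Python 3.11.15 with pandas 2.3.3, numpy 2.4.6 and scipy 1.17.1.

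The members, classes and marker lists were chosen with earlier results of these data known. Named are the 10 transporters of smallest p on each side of EXT vs. TA, the 3 on each side of the other pairs, the 2 of the sex interaction, and a list fixed by role; a few of these are not reported here. Alternatives were array weights, batches as categories or no batch at all, dropping batches 3 and 4, a joint fit of the 3 groups, a mean log2 value of at least 5, quantile normalization, median centring, trended and robust eBayes, voom weights from the recovered reads, and library size, astrocyte or choroid plexus covariates. Each mouse was left out in turn.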

Additional observations from a re-analysis of the deposited data

Results flagged for a closer look

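Within a batch or sex, the values of 9 FDR-significant transporters and of the pair with the smallest interaction p gave 75 groups of 4 to 10 mice in which an outlying mouse could be looked for by Dixon's test (95%). It found 4, and chance gives about 1 in 20 groups. For Slc25a22, TA mouse 35 of batch 1 had a log2 cpm of 8.38, against 8.60 to 8.64 in the other 3 mice. For Slc25a53, EXT mouse 23 of batch 3 had 5.01, against 5.48 to 5.61 in the other 4, and TA mouse 37 of batch 5 had 5.41, against 4.91 to 5.12 in the other 6. For Slc9a3r1, EXT male 51 had 6.67, against 4.85 to 5.75 in the other 9 males of its group.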

How the results depend on the processing

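No paired analysis was possible because the labels give each mouse its own number. The 9 FDR-significant transporters of EXT vs. TA became 0 with batches as categories, without batches 3 and 4, with array weights, with log2 library size, with an astrocyte score, with categories and library size together and without mice 22, 25, 44 and 53 (both chosen after seeing the data), and 14 with all 3 groups fitted together. Among 8203 genes, the 1755 with batch as a number became 1959 in the joint fit. Categories left 2 genes, dropping batches 3 and 4 left 3, array weights left 5, and the other fits named left 0. Fits without 1 mouse were counted for transporters only. Leaving out 1 mouse gave 2 to 18, with 2 without EXT mouse 25 or 53, 3 without 55 or 21 and 4 without 22, and 18 without 23, 51, 58 or 59, 16 without 28, 15 without 57 and 14 without 60. At an unadjusted p under 0.05, the 33 of EXT vs. TA became 11 with categories, 7 without batches 3 and 4, 21 at a mean of at least 5, 15 with array weights, 3 with library size, 20 with the astrocyte score, 4 with categories and library size and 5 without mice 22, 25, 44 and 53; leaving out 1 mouse gave 25 to 43. With the choroid plexus score the 33 became 38. Over all genes, the 3101 became 1733 with categories, 1545 without batches 3 and 4 and 1809 with array weights. Library size left 449 genes, the astrocyte score 2200, categories and library size 384, and the choroid plexus score 3047. Without mice 22, 25, 44 and 53 there were 1357 genes. A mean of at least 5 gave 21 of 68 transporters and 2392 of 5741 genes. The 19 in males became 7 with categories and 5 without mice 22, 25, 44 and 53. For all genes in males, 2382 became 1024 and 906. The 8 of FC vs. TA became 14 with categories, 11 with array weights and 11 with categories and library size. They became 4 without a batch term, 2 with all 3 groups and 5 at a mean of at least 5. Library size gave 4 and the astrocyte score 3. Leaving out 1 mouse gave 3 to 11, and 0 transporters were FDR-significant throughout. Over all genes, the 853 became 1379 with categories, 978 with array weights and 1078 with categories and library size. These became 552 genes without a batch term, 407 with all 3 groups and 619 of 5728 at a mean of at least 5. Library size left 689 genes and the astrocyte score 571. The 10 in females became 16 with categories, while 737 of all genes became 1210. The 12 of EXT vs. FC became 17 with the astrocyte score, 16 with all 3 groups and 14 with the choroid plexus score. They became 2 with categories, 2 without batches 3 and 4, 7 at a mean of at least 5 and 7 with array weights. Library size gave 4, categories and library size 4, and leaving out mice 22, 25, 44 and 53 gave 1. Leaving out 1 mouse gave 5 to 16, and 0 transporters were FDR-significant throughout. Among 8203 genes, 17 were FDR-significant in the joint fit and 12 with array weights. Before adjustment, 1587 genes became 2122 with the astrocyte score, 2143 with all 3 groups and 1680 with the choroid plexus score. Categories left 344 genes, dropping batches 3 and 4 left 362, array weights 912 and library size 396. Categories and library size left 376 genes, and dropping mice 22, 25, 44 and 53 left 265. Within sexes, categories moved males from 15 to 24 and females from 14 to 0, and leaving out those 4 mice gave 7 in females. For all genes, males went from 1067 to 721 and females from 531 to 117, or to 245 without those mice. Slc25a51 reversed to -0.0323 in EXT vs. TA with categories and library size. The causes were not tested. Of the values of 44 genes chosen by rule in EXT vs. TA under 15 alternatives, 555 stayed on the same side of the threshold. Most of these were uncalled values that stayed uncalled. Only the 9 FDR-significant genes could lose significance, which 67 of their values did, while 1 reversed. A further 19 values gained significance, and 34 uncalled values changed sign. Adding a choroid plexus score gave 13 FDR-significant transporters in EXT vs. TA, against 1542 of 8203 genes. The 13 include 4 of the 9.

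The limits are batches 3 and 4 with EXT mice only, smaller EXT libraries, RNA of other cell types, and annotation overlap at a few loci. The genes were listed only above 4 cpm in every mouse, so nothing is said here of transporters below that level.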
